A study of Mus musculus with 8 samples.

Results

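The Mediator kinase module was followed as 6 genes: Cdk8, Cdk19, Ccnc, Med12, Med13 and Med13l. They were taken by name from the deposited table of 19055 gene symbols, and all 6 were present. Cdk8 was chosen by its normalized reads in these same libraries, which differed between the genotypes, so that difference is given here as a description with no test. The other 5 genes were added as its partners and paralogues. All 6 passed a filter of at least 10 normalized reads in at least 3 libraries, as did 13704 genes in all.

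The samples were whole livers of mice aged 8 to 9 weeks, taken 48 hours after partial hepatectomy, when the remnant liver regrows. The 5 livers labelled URI(+/D)Hep came from mice in which URI, a prefoldin-like protein encoded by Uri1, was deleted in hepatocytes with the serum albumin-creERT2 line, a Cre made active by tamoxifen. The notation sets the deleted allele D beside a wild-type allele. The 3 livers labelled URI(+/+)Hep came from wild-type littermates, and whether those also carried the Cre was not given in the sources used here. Both groups received tamoxifen for 1 week. RNA was read from the 3′ ends of polyadenylated transcripts, and values are reads divided by a size factor per library, called normalized reads below. No source says that the livers were processed in separate batches. The p-values measure the spread between these 8 libraries, each taken here as 1 liver.

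Mediator is a large assembly that carries signals from DNA-bound transcription factors to RNA polymerase II, and its core is divided into head, middle and tail. The kinase module is a separable part of it, made of the kinase CDK8 or its paralogue CDK19, cyclin C (Ccnc), MED12, and MED13 or its paralogue MED13L. MED12 activates the kinase together with cyclin C, and MED13 tethers the module to the core. When bound, the module hinders the contact of Mediator with RNA polymerase II, and the kinase phosphorylates transcription factors. In liver, CDK8 is known for phosphorylating SREBP-1c, the factor that drives fatty acid synthesis, which leads to its breakdown.

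Promoters were available from RefSeq (GRCm38.p6, 250 bases before to 50 after the annotated start) for 5 of the 6 genes. Those of Cdk8 (chr5:146231000-146231299, plus strand) and of its cyclin Ccnc (chr4:21727451-21727750, plus strand) are shown because the levels of these partners lay on opposite sides of the wild-type mean. For Ccnc the groups overlapped and the difference did not pass (limma adjusted p = 0.373). Capitals mark matches, on either strand, to CACGTG (E-box), GGGCGG (GC box), CCAAT and TATAAA.
Cdk8: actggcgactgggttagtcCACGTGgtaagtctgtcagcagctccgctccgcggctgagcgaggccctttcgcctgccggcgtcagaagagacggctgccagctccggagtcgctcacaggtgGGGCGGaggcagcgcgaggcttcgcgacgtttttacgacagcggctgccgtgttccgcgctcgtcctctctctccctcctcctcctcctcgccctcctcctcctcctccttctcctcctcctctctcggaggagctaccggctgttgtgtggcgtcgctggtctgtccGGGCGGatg
Ccnc: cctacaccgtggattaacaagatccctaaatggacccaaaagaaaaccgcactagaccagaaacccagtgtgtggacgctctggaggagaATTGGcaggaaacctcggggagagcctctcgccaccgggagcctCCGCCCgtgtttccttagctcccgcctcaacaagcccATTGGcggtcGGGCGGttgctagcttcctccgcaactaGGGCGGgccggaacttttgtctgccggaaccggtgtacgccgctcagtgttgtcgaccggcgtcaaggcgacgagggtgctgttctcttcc
The E-box letters occurred in the Cdk8 window and in none of the other 4, and 7.15% of 32851 promoter windows held them. The GC box occurred in all 5 windows and in 35.7% of all windows. These 5 windows were 60.0% to 84.7% G or C, where the median over all windows was 52.7%. The shares are therefore not a like comparison. CCAAT occurred in the Ccnc window alone among the 5, and in 37.4% of all windows, and TATAAA in 0 of the 5, against 13.6% of all. These matches describe the letters and say nothing of binding.

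Uri1 was read first as a check of the labels, and it did not set the groups apart. It stood at 328, 398, 437, 354 and 401 normalized reads in URI(+/D)Hep livers 1 to 5 and at 468, 374 and 310 in URI(+/+)Hep livers 1 to 3. The groups overlapped, with means of 384 ± 42.7 in URI(+/D)Hep and 384 ± 79.3 in URI(+/+)Hep livers (SD, n = 5 and 3). Reads from the 3′ end need not show a deletion elsewhere in the gene, and why the groups overlapped was not tested. Every direction below therefore rests on the labels. Depth was 4294494 to 4800694 reads in the URI(+/D)Hep libraries and 3838674 to 4337966 in the URI(+/+)Hep libraries. All 6 hepatocyte markers examined were tested and abundant, with summed levels of 23994 to 25700 normalized reads in URI(+/D)Hep and 23388 to 27276 in URI(+/+)Hep livers.

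Cdk8, the kinase of the module, was higher in every URI(+/D)Hep liver than in any URI(+/+)Hep liver. It stood at 510, 611, 598, 577 and 514 normalized reads in URI(+/D)Hep livers 1 to 5, against 312, 324 and 323 in URI(+/+)Hep livers 1 to 3. The lowest URI(+/D)Hep liver lay above the highest URI(+/+)Hep liver, as for 6.13% of the 13704 genes tested. The means were 562 ± 47.3 in URI(+/D)Hep and 320 ± 6.73 in URI(+/+)Hep livers (SD, n = 5 and 3), or a log2 fold change of 0.81 with SE 0.10, on the log2(value + 1) scale. This difference chose the gene. In whole tissue, a change in the cells of a type and a change in RNA per cell cannot be told apart.

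The Cdk8 values rest on 520 to 660 reads in URI(+/D)Hep libraries and 260 to 329 reads in URI(+/+)Hep libraries. The spread among the 5 URI(+/D)Hep livers was a coefficient of variation of 8.41%, where counting alone gives 4.09% at this depth, with livers 1 and 5 at the low end. Among the 3 URI(+/+)Hep livers it was 2.11%, smaller than the 5.83% that counting alone gives, so these 3 values lie closer together than their precision. 

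**Figure D1:**
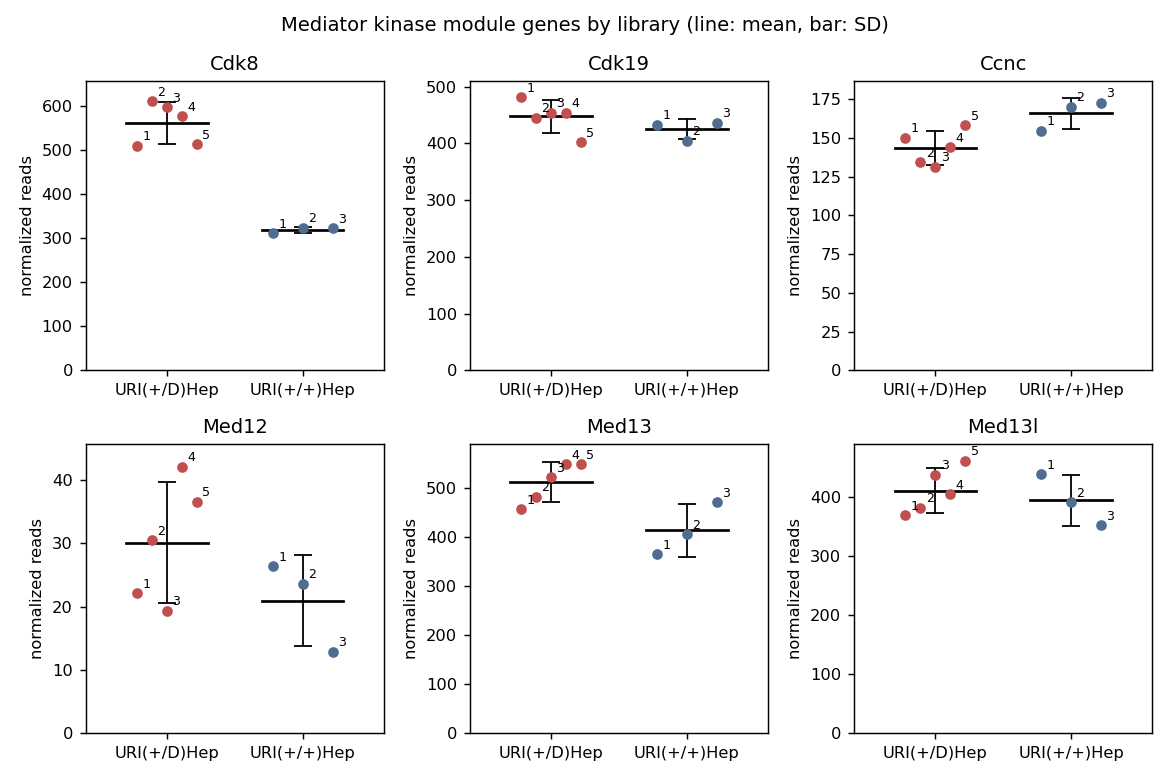
Normalized reads of the 6 kinase module genes (vertical axes, from 0) in each liver, with URI(+/D)Hep left of URI(+/+)Hep, numbers giving the replicate, the line the mean and the bar the SD. The groups are separate for Cdk8, at 510 to 611 in URI(+/D)Hep and 312 to 324 in URI(+/+)Hep livers, and overlap for the other 5 genes. Of all genes tested, 6.13% were likewise higher in every URI(+/D)Hep liver.

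Cdk19, the paralogous kinase that can take the place of CDK8 in the module, had overlapping levels in the 2 genotypes. It stood at 482, 445, 454, 454 and 403 normalized reads in URI(+/D)Hep livers 1 to 5 and at 433, 405 and 437 in URI(+/+)Hep livers 1 to 3. The lowest of all 8 values was in a URI(+/D)Hep liver, and the highest was too. The log2 fold change was 0.07 with SE 0.09 (limma adjusted p = 0.723), with a 95% interval of -0.14 to 0.29, which corresponds to 0.91- to 1.22-fold. The ratio of Cdk8 to Cdk19 reads in the same liver, which does not depend on the size factors, was 1.06, 1.37, 1.32, 1.27 and 1.28 in URI(+/D)Hep livers 1 to 5 and 0.72, 0.80 and 0.74 in URI(+/+)Hep livers 1 to 3. The ratio compares livers, since reads per transcript may differ between genes. It holds the Cdk8 values that chose the gene, so it restates their difference and is no further support. Among the 25-base words in the last 1000 bases of the GENCODE M21 transcripts of both kinases, 0 were shared. Here and below, words made mostly of A were left out. Of the 4728 such words of Cdk8, 12.9% also occurred in other genes, 513 of them in Gm7107, which was not analysed here. Gm15739, a processed pseudogene also not analysed here, overlaps Cdk8 on the same strand, so reads of these may not be told apart. The 2972 words of Cdk19 occurred in no other gene.

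**Figure D2:**
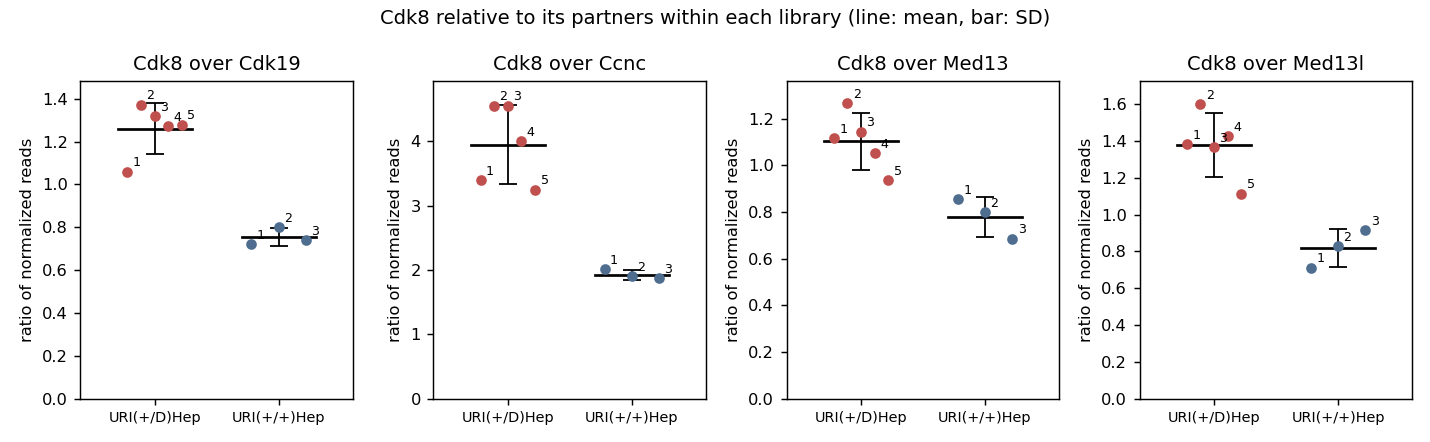
Normalized reads of Cdk8 divided by those of Cdk19, Ccnc, Med13 or Med13l in the same liver (vertical axes, from 0), with URI(+/D)Hep left of URI(+/+)Hep, numbers giving the replicate, the line the mean and the bar the SD. Each ratio drawn is higher in every URI(+/D)Hep liver than in any URI(+/+)Hep liver, which restates the Cdk8 difference, while the ratio to the thinly counted Med12, not drawn, overlapped, at 13.7 to 30.95 in URI(+/D)Hep and 11.8 to 25.1 in URI(+/+)Hep livers.

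Ccnc, which encodes the cyclin that CDK8 and CDK19 need for activity, had a lower mean in URI(+/D)Hep livers. It stood at 150.3, 134, 131, 144 and 158 normalized reads in URI(+/D)Hep livers 1 to 5, against 155, 170.3 and 173 in URI(+/+)Hep livers 1 to 3. The groups overlapped, since URI(+/D)Hep liver 5 lay above URI(+/+)Hep liver 1. The log2 fold change was -0.21 with SE 0.11 (limma adjusted p = 0.373), with a 95% interval of -0.46 to 0.05. Relative to Ccnc, Cdk8 averaged 3.95 ± 0.62 in URI(+/D)Hep livers and 1.93 ± 0.08 in URI(+/+)Hep livers (SD, n = 5 and 3). This ratio too holds the Cdk8 values that chose the gene. Tstd3, which averaged 322 normalized reads over all libraries, overlaps Ccnc on the opposite strand. With the use of strand in the counting not stated, reads of these genes may not be told apart.

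Med13, the subunit that joins the module to core Mediator, had a higher mean in URI(+/D)Hep livers. It stood at 457, 482, 523, 549 and 549 normalized reads in URI(+/D)Hep livers 1 to 5, against 365, 406 and 471 in URI(+/+)Hep livers 1 to 3. The groups overlapped, with URI(+/D)Hep liver 1 below URI(+/+)Hep liver 3. The means were 512 ± 41.1 in URI(+/D)Hep and 414 ± 53.7 in URI(+/+)Hep livers (SD, n = 5 and 3), or a log2 fold change of 0.31 with SE 0.12 and an interval of 0.05 to 0.57 (95%). It did not pass over all genes (limma adjusted p = 0.218). Brip1os, which averaged 349 normalized reads over all libraries, overlaps Med13 on the opposite strand, with the same limit on telling reads apart.

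Med13l, the paralogue of Med13, varied within both groups by as much as between them. It stood at 369, 382, 438, 405 and 462 normalized reads in URI(+/D)Hep livers 1 to 5 and at 439, 392 and 353 in URI(+/+)Hep livers 1 to 3. The URI(+/D)Hep values ran from the second lowest to the highest of the 8. The log2 fold change was 0.06 with SE 0.12 (limma adjusted p = 0.825), with a 95% interval of -0.20 to 0.32, and it was -0.02 without URI(+/+)Hep liver 3. Between Med13 and Med13l, 0 of the 25-base words at the 3′ ends were shared.

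Med12, the X-linked subunit that activates the kinase, was too thinly counted for a firm statement. It stood at 22.1, 30.6, 19.3, 42.2 and 36.6 normalized reads in URI(+/D)Hep livers 1 to 5 and at 26.4, 23.6 and 12.9 in URI(+/+)Hep livers 1 to 3. The groups overlapped, and the values rest on 20 to 45 reads in URI(+/D)Hep and 12 to 24 reads in URI(+/+)Hep libraries. The log2 fold change was 0.51 with SE 0.34 (limma adjusted p = 0.46), with a 95% interval of -0.25 to 1.26. It was 0.20 without URI(+/+)Hep liver 3. Of the 2325 words at the 3′ end of Med12, 685 also occur in Gm21986, which overlaps it on the same strand, so the level of Med12 is uncertain. Gm21986 averaged 5.38 normalized reads over all libraries.

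**Figure D3:**
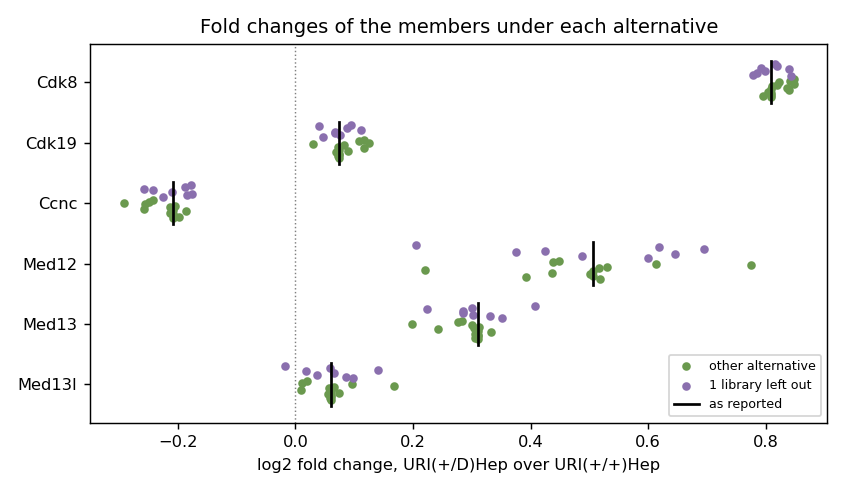
Log2 fold change of URI(+/D)Hep over URI(+/+)Hep livers (horizontal axis) for each kinase module gene, as reported (line), with 1 library left out and under the other alternatives (points). The points of Cdk8, chosen by this difference, stay between 0.78 and 0.85, and those of Med12 spread from 0.20 to 0.78.

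The reported values were set beside 22 alternatives in normalization, filter, test and libraries, under which Cdk8 lay at 0.78 to 0.85 and Med12 reached 0.78. As Cdk8 was chosen by this difference in the same libraries, its narrow range is a description and no further support. Of the 5 members other than Cdk8, 0 passed an adjusted p of 0.05 in limma, where 0.0% of 13704 genes passed as higher and 0.0146% as lower in URI(+/D)Hep livers. The count was also 0 of 5 with edgeR, which passed 0.0% of the genes as higher and 0.0219% as lower, and 0 of 5 with DESeq2, which passed 2.03% of 11540 genes as higher and 2.94% as lower. Of these 5, 1, Med13, was higher at an unadjusted limma p under 0.05, as were 8.35% of all genes, and 0 were lower, as were 9.33%. Groups were separate for 0 of these 5, while 6.13% of all genes were higher and 7.3% lower in every URI(+/D)Hep liver than in any URI(+/+)Hep liver.

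Sex-linked transcripts, dividing cells and other cell types also varied between these livers, and the part of any of these in the Cdk8 difference was not tested. Xist, the RNA of the inactive X chromosome, stood at 1217 to 2357 normalized reads in URI(+/D)Hep livers, and at 9.59, 2.95 and 1298 in URI(+/+)Hep livers 1 to 3. Cdk8 was 323 in URI(+/+)Hep liver 3, next to 312 and 324 in livers 1 and 2, which is 1 liver and decides nothing about sex. The sum of 4 Y-linked genes (Uty, Kdm5d, Eif2s3y and Ddx3y) was 3.54 in URI(+/D)Hep liver 1 and 786 to 1002 in livers 2 to 5. In URI(+/+)Hep livers 1 to 3 it was 1558, 1312 and 569. URI(+/D)Hep livers 2 to 5 and URI(+/+)Hep liver 3 thus held both high Xist and high Y-linked reads, and why was not tested. Whether such a library held RNA of more than 1 animal was not tested either. If it did, the p-values would not measure the spread between single livers. Xist was high in all URI(+/D)Hep livers but only in liver 3 of URI(+/+)Hep, so genotype and sex make-up cannot be told apart. With the share of Y-linked reads as a covariate the log2 fold change of Cdk8 was 0.85. Mki67, which marks dividing cells, stood at 469, 333, 268, 586 and 49.5 in URI(+/D)Hep livers 1 to 5 and at 23.99, 282 and 468 in URI(+/+)Hep livers 1 to 3. Without the liver lowest in Mki67 from each group, URI(+/D)Hep 5 and URI(+/+)Hep 1, the log2 fold change of Cdk8 was 0.82. Both refits describe a gene chosen by this difference and test no cause.

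Of 8 marker lists of 6 genes each, limma and edgeR passed 0 of the 37 genes tested, while 5 had an unadjusted limma p under 0.05 as higher and 5 as lower, against 8.35% and 9.33% of all genes. DESeq2, which passed 2.03% of genes as higher and 2.94% as lower, passed 6 of the markers: the hepatocyte gene Cps1 and the endothelial gene Tek as higher, and the neutrophil genes Csf3r and Mmp9 and the cholangiocyte genes Sox9 and Spp1 as lower. Summed endothelial and B cell markers had separate groups, higher in URI(+/D)Hep livers, as for Cdk8. Endothelial markers summed to 2140 to 2334 normalized reads in URI(+/D)Hep and 1564 to 1996 in URI(+/+)Hep livers, with 6 of 6 genes positive. The 4 B cell markers analysed here summed to 75.0 to 131 in URI(+/D)Hep and 10.8 to 64.4 in URI(+/+)Hep livers, with 3 of 3 tested genes positive. The other lists overlapped. Stellate markers summed to 1432 to 1718 in URI(+/D)Hep and 1475 to 1562 in URI(+/+)Hep livers, and macrophage markers to 1599 to 2111 in URI(+/D)Hep and 1373 to 1984 in URI(+/+)Hep livers. Positive were 2 of 6 hepatocyte, 3 of 6 stellate and 4 of 6 macrophage genes. Neutrophil markers summed to 289 to 846 in URI(+/D)Hep and 520 to 1055 in URI(+/+)Hep livers, with 0 of 5 tested genes positive. Cholangiocyte markers summed to 233 to 1169 in URI(+/D)Hep and 254 to 1659 in URI(+/+)Hep livers, with 2 of 4 tested genes positive. T and NK cell markers summed to 15.5 to 73.2 in URI(+/D)Hep and 2.40 to 33.3 in URI(+/+)Hep livers, with 1 of 6 above the filter.

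Core Mediator genes, which encode the assembly that the module binds, mostly lay on the lower side in URI(+/D)Hep livers. Of 25 tested, 21 had a negative and 4 a positive log2 fold change, with a median of -0.21, where the median over all genes tested was -0.002 and 6875 of 13704 were negative. limma and edgeR passed 0 of them, DESeq2 passed 1 as lower, against 2.94% of genes, and 4 had an unadjusted limma p under 0.05, all lower, against 9.33% of all genes. Groups were separate for 5 of 25, all lower in URI(+/D)Hep, against 7.3% of all genes. Med20 was not analysed here. The summed level was 3138 to 3427 normalized reads in URI(+/D)Hep and 3588 to 3900 in URI(+/+)Hep livers, with no overlap. The 6 kinase module genes summed to 1991 to 2171 in URI(+/D)Hep and 1720 to 1769 in URI(+/+)Hep livers, a sum that includes Cdk8.

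**Figure D4:**
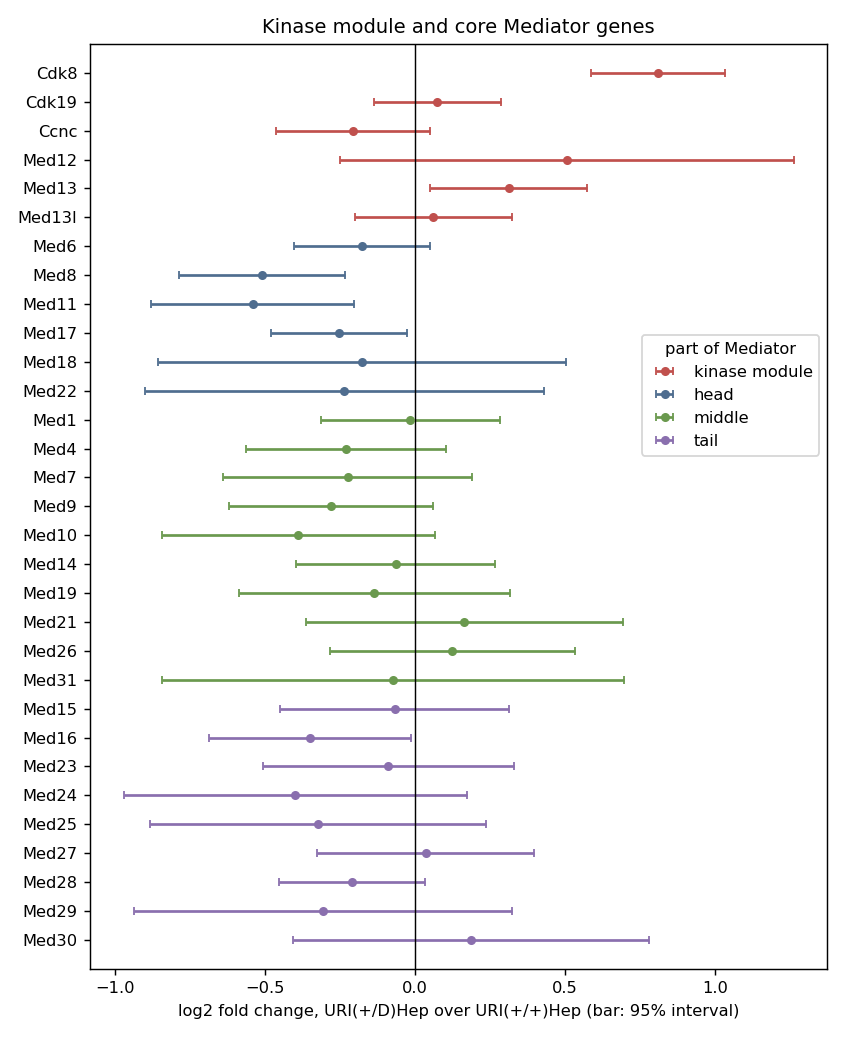
Log2 fold change of URI(+/D)Hep over URI(+/+)Hep livers (horizontal axis) with its 95% interval for the 6 kinase module genes and 25 core Mediator genes, coloured by part of the complex. Cdk8, chosen by this difference, is at 0.81, the interval of Med12 is the widest of the kinase module, from -0.25 to 1.26, and the 6 head genes all lie left of 0.

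In the head, which contacts RNA polymerase II, 6 of 6 genes were on the lower side. Med8 stood at 445, 391, 486, 440.3 and 458 normalized reads in URI(+/D)Hep livers 1 to 5, against 754, 562 and 594 in URI(+/+)Hep livers 1 to 3. All URI(+/D)Hep livers lay below all URI(+/+)Hep livers, and the log2 fold change was -0.51 with SE 0.12 (limma adjusted p = 0.116, DESeq2 adjusted p = 0.0153). Med11 stood at 53.9, 52.8, 47.4, 62.8 and 50.4 in URI(+/D)Hep livers 1 to 5, against 82.7, 79.8 and 71.9 in URI(+/+)Hep livers 1 to 3, again with separate groups (log2 fold change -0.54 with SE 0.15, limma adjusted p = 0.135). Med17, the central head subunit, averaged 203 ± 9.47 in URI(+/D)Hep and 243 ± 17.6 in URI(+/+)Hep livers (SD, n = 5 and 3) and was the third head gene with separate groups.

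In the middle, 8 of 10 genes were on the lower side. Med10 averaged 75.8 ± 12.7 normalized reads in URI(+/D)Hep and 100.4 ± 25.3 in URI(+/+)Hep livers (limma adjusted p = 0.347), and Med9 62.5 ± 6.72 in URI(+/D)Hep and 76.0 ± 7.03 in URI(+/+)Hep livers (limma adjusted p = 0.365). Med21 and Med26 were the 2 genes on the higher side, with log2 fold changes of 0.16 and 0.12. In the tail, where many transcription factors bind, 7 of 9 genes were on the lower side. Med16 averaged 197 ± 24.4 in URI(+/D)Hep and 252 ± 41.9 in URI(+/+)Hep livers (limma adjusted p = 0.268), and Med28 had a log2 fold change of -0.21 with separate groups (limma adjusted p = 0.341). Med30 and Med27 had log2 fold changes of 0.18 and 0.03.

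**Figure D5:**
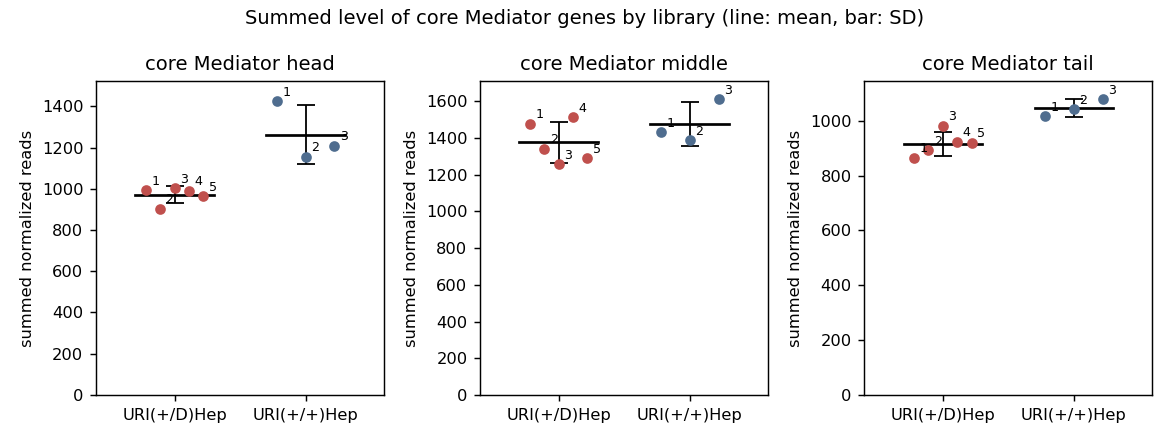
Summed normalized reads of the core Mediator head, middle and tail genes (vertical axes, from 0) in each liver, with URI(+/D)Hep left of URI(+/+)Hep, numbers giving the replicate, the line the mean and the bar the SD. The groups are separate for the head, at 904 to 1003 in URI(+/D)Hep and 1157 to 1425 in URI(+/+)Hep livers, and for the tail, at 864 to 981 in URI(+/D)Hep and 1017 to 1079 in URI(+/+)Hep livers, and overlap for the middle.

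The other kinases that act on RNA polymerase II, and their cyclins, showed no common direction. Of 13 genes tested, 5 were positive and 8 negative, with a median log2 fold change of -0.01. limma, edgeR and DESeq2 passed 0, and 1 higher and 1 lower gene had an unadjusted limma p under 0.05, against 8.35% and 9.33% of all genes. Cdk10 was not analysed here. The genes with the smallest p in each direction were Cdk13 and Cdk12, kinases of transcription elongation, with log2 fold changes of 0.37 and 0.10 (limma adjusted p = 0.194 and 0.658), and Ccnt2, a cyclin partner of CDK9, and Cdk7, the kinase of TFIIH, with -0.24 and -0.30 (limma adjusted p = 0.246 and 0.401).

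Genes of proteins that the kinase phosphorylates, and of FBXW7, the ubiquitin ligase that marks MED13 and MED13L for degradation, were also measured. Of 8, limma, edgeR and DESeq2 passed 0, 6 were positive and 2 negative, and the median log2 fold change was 0.15. That median had no stable sign: it was -0.18 once Y-linked reads were a covariate, -0.050 without URI(+/+)Hep liver 1, -0.0088 without URI(+/D)Hep liver 1 and 0.036 without URI(+/D)Hep liver 4. At an unadjusted limma p under 0.05, 1 was higher and 2 lower, against 8.35% and 9.33% of all genes. Smad3, a mediator of TGF-beta signals, and Fbxw7 had log2 fold changes of 0.31 and 0.13 (limma adjusted p = 0.268 and 0.626). Stat3, of interleukin 6 signalling, and Smad1, of BMP signals, had -0.42 and -0.31 (limma adjusted p = 0.268 and 0.272). Srebf1, which encodes SREBP-1c, ranged from 57.0 to 251 normalized reads in URI(+/D)Hep and from 68.4 to 141 in URI(+/+)Hep livers.

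Among 10 lipogenic genes that SREBP-1c drives, limma, edgeR and DESeq2 passed 0, 7 were positive and 3 negative, and the median log2 fold change was 0.18. It was 0.050 without URI(+/D)Hep liver 4, 0.10 without URI(+/+)Hep liver 1 and 0.12 without URI(+/+)Hep liver 3. At an unadjusted limma p under 0.05, 1 was higher and 0 lower, against 8.35% and 9.33% of all genes. Scd1, which makes monounsaturated fatty acids, stood at 1985, 2042, 2466, 2382 and 3572 normalized reads in URI(+/D)Hep livers 1 to 5, against 1607, 1847 and 1647 in URI(+/+)Hep livers 1 to 3. The groups were separate, as were those of 6.13% of all genes in this direction, and the log2 fold change was 0.52 with SE 0.19 (limma adjusted p = 0.203). Acaca, which commits acetyl-CoA to fatty acid synthesis, had a log2 fold change of 0.20 (limma adjusted p = 0.418). Thrsp, a lipogenic cofactor, and fatty acid synthase Fasn had -0.89 and -0.18 (limma adjusted p = 0.377 and 0.649).

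Genes beside Cdk8 on chromosome 5 were set beside it, using the order of genes in RefSeq GRCm38.p6 and no coordinates. The nearest measured protein-coding genes were Rnf6, Cyp3a59 and Cyp3a25 on one side and Gpr12, Usp12 and Rpl21 on the other. limma, edgeR and DESeq2 passed 0 of the 5 tested, and 3, Rnf6, Cyp3a25 and Usp12, had an unadjusted limma p under 0.05 as higher, a share to be set beside 8.35% of all genes. Rnf6, an E3 ubiquitin ligase gene and the nearest neighbour, stood at 473, 515, 559, 555 and 408 normalized reads in URI(+/D)Hep livers 1 to 5, against 273, 373 and 423 in URI(+/+)Hep livers 1 to 3. The groups overlapped, with URI(+/D)Hep liver 5 below URI(+/+)Hep liver 3, and the log2 fold change was 0.51 with SE 0.16 (limma adjusted p = 0.173). Usp12, a deubiquitinase gene, had a log2 fold change of 0.60, also with overlapping groups (limma adjusted p = 0.223). Cyp3a25 and Cyp3a59, cytochrome P450 genes, had log2 fold changes of 0.93 and 0.94 (limma adjusted p = 0.243 and 0.399), and as members of a family of similar genes their reads may be shared. Rpl21, a ribosomal protein gene, had one of -0.13 (limma adjusted p = 0.726), and Gpr12, an orphan receptor gene, had at most 3 reads in any library.

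The genes whose pattern was most like that of Cdk8 were ranked, as a description, among 9610 genes averaging at least 50 normalized reads. Over the 8 livers, which fall into 2 groups for Cdk8, the highest Pearson r of log2 values were those of Txnrd1, a thioredoxin reductase, Phkb, a subunit of phosphorylase kinase, Dhx36, an RNA helicase, Elf1, an ETS transcription factor, and Bcl2, which restrains cell death, with r of 0.97 for all 5. Txnrd1 stood at 925, 965, 979, 924 and 936 normalized reads in URI(+/D)Hep livers 1 to 5 and at 808, 786 and 769 in URI(+/+)Hep livers 1 to 3. Once each group's mean was removed, the closest were Cntrl, Sbno1, Cenpc1, Fads2 and Patl1, with r of 0.94 to 0.91. No gene was in both sets of 5. By the second measure Cdk19 had an r of 0.09, Med13 of 0.17, Med13l of -0.15, Med12 of -0.10 and Ccnc of -0.71 with Cdk8.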

How the data were processed

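The deposited table holds normalized signal, that is, read counts that the authors divided by a size factor per library, made with featureCounts and DESeq2 on GRCm39, per the submitters' processing notes. The aligner, the annotation and how the 6 nt molecular identifiers were used were not given in the sources used here. Dividing by the smallest value above 0 gave whole reads for 100% of values (tolerance 1e-06). That step was close to 1 in URI(+/D)Hep 5, where it is less certain. A count of 3 reads equals 2.65 to 3.60 normalized reads.

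Tests ran in limma 3.58.1 on log2(value + 1) (R 4.3.3, mean-variance trend, Benjamini-Hochberg over 13704 genes). edgeR 4.0.16 and DESeq2 1.42.0 on recovered reads were alternatives, and DESeq2 left 2164 genes without an adjusted p. Other alternatives were pseudocounts, filters, TMM and quantile normalization, no trend, a replicate block, a covariate for Y-linked reads and leaving out libraries. Scripts were tested on simulated data. The members and lists were chosen with earlier results of these data known. Genes named were all members and neighbours and, per list, up to 2 per direction by smallest p, besides the 5 genes most like Cdk8 by each of 2 correlations. Med17, Srebf1 and Gm21986 were added after their values were seen.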

Additional observations from a re-analysis of the deposited data

How the results depend on the processing

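The log2 fold change of Cdk8, which was chosen by this difference, lay between 0.78 and 0.85 over 22 alternatives. For the other members it lay between 0.03 and 0.13 for Cdk19, -0.29 and -0.18 for Ccnc, 0.20 and 0.41 for Med13, 0.20 and 0.78 for Med12 (21 alternatives, as a mean of at least 50 removed it) and -0.017 and 0.17 for Med13l, where leaving out 1 library gave -0.017 (without URI(+/+)Hep replicate 3) to 0.14. None of these 5 passed in any alternative, with adjusted p of 0.132 or more. Over the whole table, limma passed 0 higher and 2 lower genes. Leaving out 1 library gave 0 to 10 higher and 0 to 19 lower, with 10 and 19 without URI(+/+)Hep replicate 3. There were 0 lower genes with quantile normalization, without the trend, with the Y-linked covariate and without the 2 livers lowest in Mki67, where 1 gene was higher, as with a mean of at least 50. DESeq2 passed 234 higher and 339 lower, and on the 7 libraries other than URI(+/D)Hep 5, a setting chosen after seeing the data, 123 and 255, where edgeR passed 0 lower. The cause was not tested. Of core Mediator genes, DESeq2 passed 1 on 8 and 1 on 7 libraries, and their median log2 fold change lay between -0.24 and -0.16. The median of the substrate genes lay between -0.18 (Y-linked covariate) and 0.22, with -0.050 to 0.22 on leaving out 1 library, that of the lipogenic genes between 0.050 (without URI(+/D)Hep replicate 4) and 0.21, with 0.08 in the replicate block, and that of the other kinases between -0.08 and 0.04. Lists of other kinases, lipogenic genes and neighbours had 0 calls throughout. No label says that replicate numbers pair the livers. Deviations of same-numbered livers correlated at -0.40, -0.04 and -0.27, where all pairs ranged from -0.54 to 0.54. These correlations cannot decide whether livers shared a litter or a day. With the replicate block, which takes URI(+/D)Hep 4 and 5 out of the group difference, 0 genes were lower and Cdk8 had a log2 fold change of 0.84. Depth limits Med12 most, at 12 to 45 reads.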
